A study of Homo sapiens with 6 samples.

Results

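Haem synthesis enzymes make iron-protoporphyrin IX, the oxygen-binding and electron-carrying group of haemoglobin, cytochromes and many other proteins. The pathway starts in mitochondria, where ALAS1 (in every cell) or ALAS2 (in red cell precursors) joins glycine to succinyl-CoA. ALAD, UROS and UROD then act in the cytosol, and CPOX, PPOX and FECH finish the ring and insert iron in mitochondria. The 8 genes described were ALAS1, ALAS2, ALAD, UROS, UROD, CPOX, PPOX and FECH, taken by gene symbol from the transcript identifiers of the count tables. A counted transcript was matched for 5 of the 8, ALAS1, ALAD, UROD, PPOX and FECH, among 37339 matched transcripts, 19032 of them mRNAs. No counted transcript was matched for ALAS2, UROS or CPOX, and their expression was not analysed here.

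The data came from K562 cells, a human cell line from a chronic myelogenous leukemia with erythroid features. Nascent transcription was read with 2 PRO-seq libraries, which hold the RNA still attached to working polymerases, and the standing RNA pool with 4 libraries of rRNA-depleted total RNA-seq. All 6 libraries came from 1 source of untreated cells grown in RPMI-1640 with 10% serum, so the only contrast was between assays, in 1 cell line without any perturbation. The authors grew the cells for both assays in the same flask, so the replicates do not measure variation between cultures. The p-values measure only the spread between these libraries.

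Counts on transcription units (TUs) ranged from 5732780 to 9002746 in RNA-seq libraries and were 6993816 and 7245632 in PRO-seq. RNA-seq replicates 1 and 3, and 2 and 4, were closer to each other (chi-square per degree of freedom of 1.12 in both pairs) than the other 4 RNA-seq pairs (1.74 to 2.11), so the libraries were not equally independent. Erythroid markers were present, with GATA1 at 155 TPM (a level scaled for transcript length and library depth) in RNA-seq and 87.8 TPM in PRO-seq, TAL1 at 79.7 and 227, TFRC at 632 and 663, and EPOR at 10.8 and 43.6. HBZ, an embryonic globin gene, had 13.2 and 5.05 TPM. Of 8 markers of other cell types 6 were matched, and CD3E, MS4A1, COL1A1 and ALB lay under 0.6 TPM in both assays. MPO stood at 0.0229 TPM in RNA-seq and 1.90 TPM in PRO-seq, and the monocyte marker LYZ at 334 and 13.0 TPM, whose part in the values below was not tested. A bulk level does not tell whether fewer cells express a gene or each cell holds less of its RNA.

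Start sites were described first, because PRO-seq reads transcription that begins there. RefSeq holds 300-base promoters on GRCh38.p14 (250 bases before and 50 after a start) for 7 of the 8 genes, with 2 starts each, in overlapping windows, for PPOX and ALAD, and holds none for UROS. On both strands, words read by the erythroid factor GATA1 (TGATAA, with T or A as its first base and A or G as its last) occurred in 24.97% of 35116 promoters. The CACC word of KLF-type factors (CCACACCC) occurred in 3.28%, the palindromic NRF1 motif, of a regulator of respiratory genes, in 5.78%, CCAAT in 34.6% and TATAAA in 11.5%. GATA words were found at the downstream starts of PPOX and ALAD and at the starts of CPOX (2 words) and ALAS2, and none at the starts of ALAS1, UROD or FECH or at the upstream starts of PPOX and ALAD. Both NRF1 words among the members lay at ALAS1. CCAAT was found at the upstream starts of PPOX and ALAD and at the starts of ALAS1 and ALAS2, and TATAAA at ALAS1 only. No word searched was found in the UROD or FECH windows. These are matches of letters and not binding sites. The word is in capitals with its flanks, on the strand of the gene, so that a word on the other strand appears as its reverse complement, and each follows the promoter window it was read from.
PPOX downstream start, GATA word 63 bases before the start, chr1:161166396-161166695, plus strand: agggtgtggcccTTATCTgcacccagcaga
PPOX downstream start, CACC word 74 bases before the start, same window: gccgatagcgaGGGTGTGGcccttatctgc
ALAD downstream start, GATA word 68 bases before the start, chr9:113401071-113401370, minus strand: ctggatgcggggAGATAGcgggcctggagg
ALAS2 start, GATA word 127 bases before the start, chrX:55030928-55031227, minus strand: ctactttgggttTTATCTctagcaaggaag
CPOX start, GATA word 125 bases before the start, chr3:98593562-98593861, minus strand: cgcgtcggattcTTATCTcccgccccgcgc
ALAS1 start, NRF1 word 9 bases before the start, chr3:52197833-52198132, plus strand: gctacgcggcGCGCCTGCGCagaagaaggc
ALAS1 start, NRF1 word 21 bases after the start, same window: agcgcccaagGCGCATGCGCagcggtcact
The windows of FECH (74.0% GC, 34 CpG) and ALAD (73.3% and 71.3%) were richest in GC, and those of UROD (54.0%, 13 CpG) and ALAS2 (52.7%, 3 CpG) poorest, against a median of 58.7% and 14 CpG over all promoters.

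UROD, the decarboxylase that turns uroporphyrinogen into coproporphyrinogen, stood far above the other 4 enzymes in both assays. Its RNA-seq level was 676, 671, 668 and 654 TPM in replicates 1 to 4 (667 ± 9.29 TPM, SD, n = 4). PRO-seq gave 170 and 201 TPM (185 ± 21.9 TPM, SD, n = 2). Among the 8733 mRNAs tested (PRO-seq level over 10 TPM, RNA-seq level over 1 TPM), these levels were at percentile 97.8 in RNA-seq and 94.0 in PRO-seq. The counted transcript, ENST00000652165, lies on GRCh37 at chr1:45476622-45481176, plus strand, with 9 exons of 2138 bases in all.

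ALAS1, the rate-limiting enzyme of haem synthesis outside red cell precursors, was at mid-range in both assays. In RNA-seq it was at 34.2, 35.9, 33.1 and 31.7 TPM (33.7 ± 1.77, SD, n = 4), percentile 52.7. PRO-seq gave 48.5 and 51.3 TPM (49.9 ± 1.99, SD, n = 2), percentile 52.4. The median tested mRNA had 31.2 TPM in RNA-seq and 47.5 TPM in PRO-seq. The counted ENST00000394965 lies on GRCh37 at chr3:52232110-52248343, plus strand, with 12 exons.

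PPOX, the oxidase that makes protoporphyrin IX, had 32.3, 32.2, 32.2 and 33.5 TPM in RNA-seq (32.5 ± 0.640, SD, n = 4). In PRO-seq it had 61.7 and 57.6 TPM (59.7 ± 2.87, SD, n = 2), at percentiles 51.4 and 60.9. The counted transcript, ENST00000495483, on GRCh37 at chr1:161136270-161147803, plus strand, is annotated as a target of nonsense-mediated decay, with a coding part of 234 bases. It runs 6793 bp past the end of the canonical coding transcript (ENST00000367999) and overlaps B4GALT3 on the other strand over 57.7% of its length, 1120 exonic bp included. Because no source used here says whether the counting used strand, reads of PPOX and B4GALT3 could not be told apart, and the PPOX level is uncertain.

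FECH, which inserts ferrous iron into protoporphyrin IX, had 19.4, 19.3, 19.7 and 18.4 TPM in RNA-seq (19.2 ± 0.586, SD, n = 4) and 46.0 and 51.0 TPM in PRO-seq (48.5 ± 3.60, SD, n = 2). Its RNA level was at percentile 36.5 and its PRO-seq level at percentile 51.0 of the tested mRNAs. The counted transcript, ENST00000262093, spans 42326 bp on GRCh37 at chr18:55211609-55253934, minus strand. It was the longest of the 5 TUs and had the most PRO-seq counts (491 and 556).

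ALAD, which joins a pair of aminolevulinate molecules into porphobilinogen, was lowest in both assays. RNA-seq gave 8.71, 9.27, 7.46 and 8.10 TPM (8.39 ± 0.777, SD, n = 4), and PRO-seq 17.99 and 21.99 TPM (19.99 ± 2.83, SD, n = 2), at percentiles 17.5 and 15.1. It also had the fewest counts, 61 to 119 in an RNA-seq library and 65 and 81 in PRO-seq, and so the widest interval. ENST00000409155 lies on GRCh37 at chr9:116148592-116163564, minus strand.

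**Figure D1:**
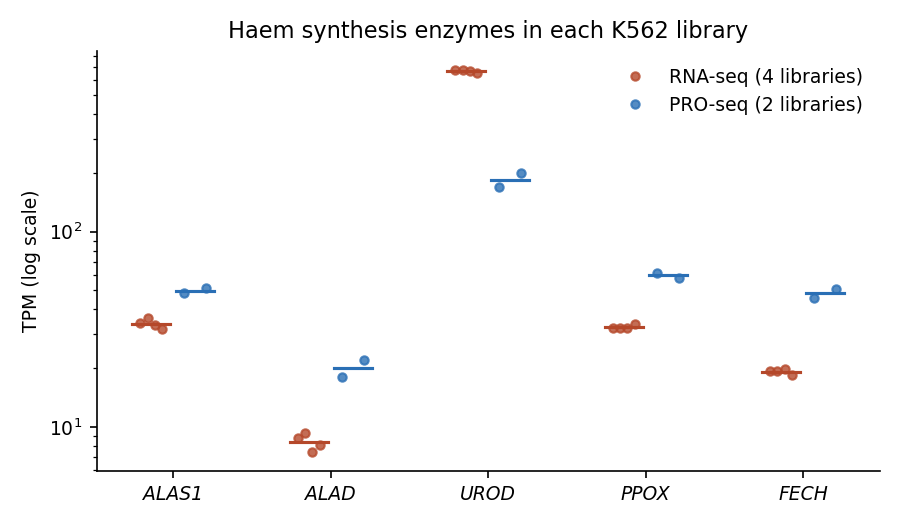
Level of the 5 matched haem synthesis enzymes in each library, in TPM on a log axis. Points are libraries (4 RNA-seq, 2 PRO-seq) and lines are means over the libraries of an assay. UROD lies above every other enzyme in both assays, and ALAD lies lowest.

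In RNA-seq, UROD was 19.8 times above ALAS1, the next in order. ALAS1 and PPOX overlapped between libraries (33.7 and 32.5 TPM), so their order is not resolved. FECH followed 1.70 times below PPOX, and ALAD 2.29 times below FECH, both without overlap between libraries. In PRO-seq, UROD was 3.10 times above PPOX. PPOX was 1.20 times above ALAS1 without overlap, ALAS1 and FECH overlapped (49.9 and 48.5 TPM), and ALAD lay 2.43 times below FECH. From UROD to ALAD, RNA levels spanned 78.6-fold and PRO-seq levels 9.26-fold. UROD alone made up 87.4% to 87.8% of the summed RNA-seq TPM of the 5 enzymes in the 4 libraries, and 49.4% and 52.4% of their summed PRO-seq TPM.

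The ratio of RNA-seq to PRO-seq TPM served as a relative half-life without a time unit, since a stable RNA accumulates more steady-state signal for the same transcription. PRO-seq reads polymerase occupancy, which depends on elongation rate as well as on transcription rate, so the ratio can vary with both. For their main analyses the authors used earlier published libraries, whose half-life estimates varied less and lay closer to published ones. The ratio was compared with that of the median mRNA by the quasi-likelihood test of edgeR with Benjamini-Hochberg adjustment over all 9929 TUs tested. All 5 matched enzymes passed both TPM thresholds. The ratio was higher than that of the median mRNA for 1 enzyme (UROD) and lower for 3 (FECH, ALAD and PPOX), and ALAS1 did not pass the test. Over all TUs tested, 40.4% were called above and 50% below the median mRNA, and over the 8733 mRNAs 45.4% and 44.9%, so calls in both directions are the common case and the counts do not set the enzymes apart. Their median log2 ratio was -0.24, which is the value of PPOX.

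**Figure D2:**
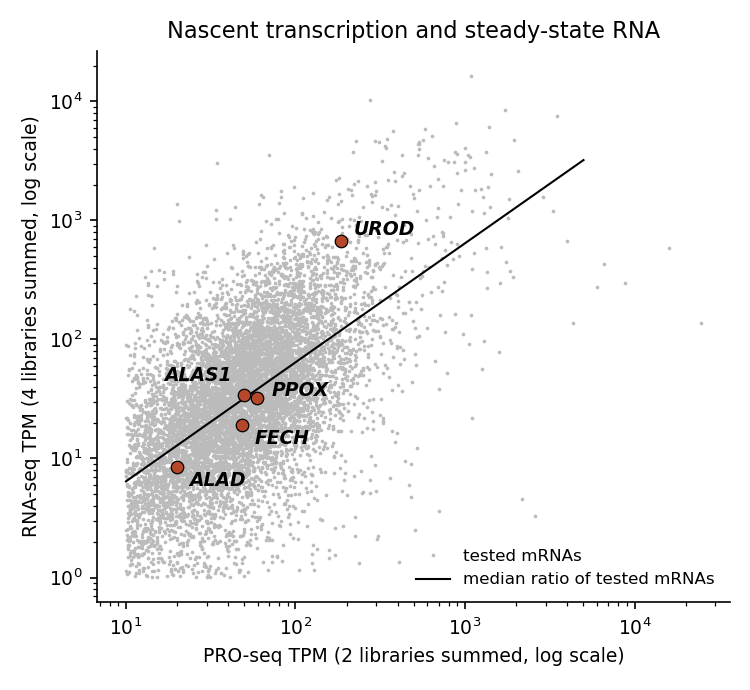
RNA-seq TPM against PRO-seq TPM on log axes, each from summed counts, for the 8733 tested mRNAs (grey points) and the 5 haem synthesis enzymes (red). The line marks the median RNA-seq over PRO-seq ratio of 0.643, and UROD lies well above it whereas FECH and ALAD lie below it.

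UROD lay 2.49 above the median mRNA on the log2 scale (SE 0.064, 95% interval 2.36 to 2.62, edgeR adjusted p = 1.2e-25), at percentile 93.3 of the tested mRNAs. FECH lay at -0.70 (SE 0.066, interval -0.83 to -0.56, edgeR adjusted p = 2.8e-11), a ratio 1.62-fold lower than that of the median mRNA. ALAD was at -0.60 (SE 0.154, interval -0.91 to -0.28, edgeR adjusted p = 0.00065), 1.51-fold lower. For PPOX the value was -0.24 (SE 0.096, interval -0.43 to -0.04, edgeR adjusted p = 0.021), and for ALAS1 0.08 (SE 0.091, interval -0.11 to 0.27, edgeR adjusted p = 0.40). FECH and ALAD, at percentiles 32.9 and 35.3, were thus called lower while lying within the middle of the mRNAs, whose log2 ratios had an SD of 1.68 and ran from -2.75 to 2.77 between the 5th and 95th percentiles.

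The PPOX call was lost without PRO-seq replicate 1 (-0.18, edgeR adjusted p = 0.19), with DESeq2 and in several other settings. It turned to 0.37 (edgeR adjusted p = 0.00052) when the exon length of the canonical transcript replaced that of the counted one. ALAS1 then also passed, at 0.21 (edgeR adjusted p = 0.031). With at least 1 summed count and no TPM thresholds, 20644 TUs entered and the reference dropped so that all ratios rose by a median of 0.66. ALAS1 (0.74) and PPOX (0.42) were then called above, and FECH (-0.04) and ALAD (0.06) were not called. The value of UROD ran from 2.38 to 3.43 over the 18 alternatives tried and was called above in each.

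**Figure D3:**
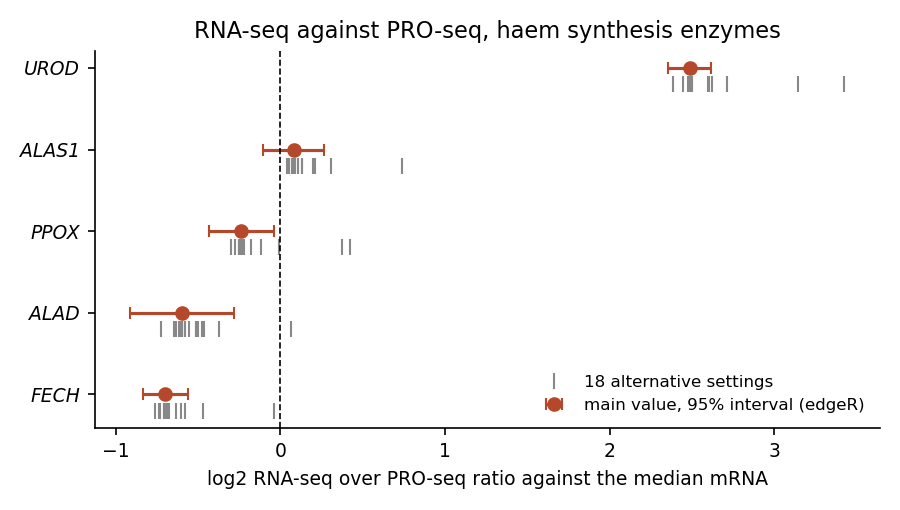
Log2 ratio of RNA-seq to PRO-seq against the median mRNA (dashed line at 0) for the 5 enzymes, with the 95% interval of the edgeR fit and a tick for each of 18 alternative settings. All ticks of UROD lie above 2, whereas those of ALAD and PPOX fall on both sides of 0.

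Differences between enzymes within a library do not depend on the scaling of the libraries or on the reference. The log2 difference of UROD over ALAS1 was 4.31 in RNA-seq and 1.89 in PRO-seq, so that UROD exceeded ALAS1 by a further 2.42 in RNA-seq. The same gap was 2.73 over PPOX, 3.11 over ALAD and 3.19 over FECH. In the same measure ALAS1 exceeded FECH by 0.77, ALAD by 0.68 and PPOX by 0.31, and PPOX exceeded FECH by 0.46 and ALAD by 0.38. The place of PPOX rests on its lengths, since with canonical exon lengths ALAS1 less PPOX turned to -0.17. With all PRO-seq counts placed inside the canonical transcripts, PPOX less FECH was -0.85 and PPOX less ALAD -0.94. The other pairs kept their direction in both. As counted, in those 9 of 10 pairs the 4 RNA-seq libraries lay apart from the 2 PRO-seq libraries. The exact two-sided permutation test gave p = 0.0667 in each, the smallest the design allows (adjusted 0.0741 over the 10 pairs), so that none can pass 0.05. That test treats all libraries as equal units, although some RNA-seq replicates were closer to each other than the rest. ALAD and FECH differed by 0.0852 (exact permutation p = 0.533).

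The windows behind these values differ between enzymes. The PRO-seq window of a TU starts 500 bp after its start and stops 500 bp before its end. For UROD, the RefSeq and canonical start lies 1304 bp downstream of the counted start, so 804 of the 3555 bp in its window (22.6%) lie before that start. UROD also overlaps HECTD3 on the other strand over 375 exonic bp, 8.23% of its TU. The UROD window also takes in the first 500 bp after the canonical start, a stretch that the method leaves out because of polymerase pausing. Signal there would raise the PRO-seq level of UROD and its share among the enzymes, and lower its ratio. The amount of that signal was not tested. If all PRO-seq counts of UROD fell inside the canonical transcript, its ratio would be 2.12, by arithmetic from the lengths alone. That value keeps the counted exon length of 2138 bases, whereas the canonical transcript has 1193. The canonical exon length alone gave 3.43 for UROD. Both changes together were not computed for any enzyme's ratio to the median mRNA. For PPOX 59.7% of the window lies outside the canonical transcript, and the same arithmetic gives -1.55, against 0.37 with the canonical exon length alone. For ALAS1, ALAD and FECH the whole window lies inside the canonical transcript. The counted transcripts of ALAD and FECH are the canonical ones, so no other exon length was tried for them. Of the 7689 exon bases of FECH, 6335 are annotated 3′ UTR. Whether K562 cells use all of it was not tested.

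**Figure D4:**
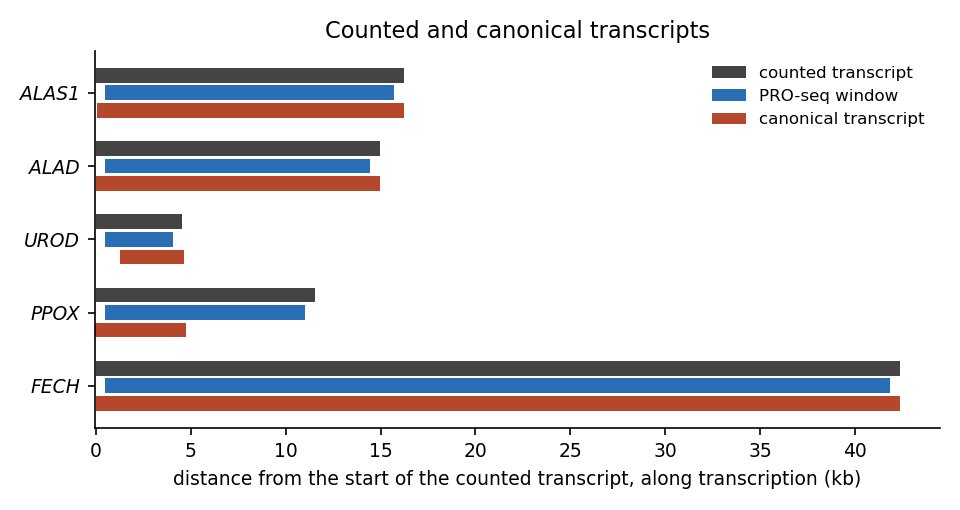
Span of the counted transcript, of the PRO-seq window (500 bp off each end) and of the canonical transcript for the 5 enzymes, in kb from the counted start. The canonical UROD starts 1304 bp later than the counted one, and the counted PPOX runs 6793 bp past the canonical end, whereas the bars of ALAD and FECH coincide.

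The canonical mRNAs of the enzymes differ most in their 3′ UTRs. Lengths were 44 bases for PPOX, 77 for UROD, 147 for ALAS1, 1988 for ALAD and 6335 for FECH, against a median of 1292 over 8712 tested mRNAs. UROD and PPOX were at percentiles 2.51 and 0.964, and FECH at 95.8. Among the genes without counts ALAS2 had 125, UROS 282 and CPOX 1237. In 4 bins of tested mRNAs by 3′ UTR length, with about equal numbers in each, the median log2 ratio was 0.64 (4 to 512 bases), 0.19 (513 to 1295), -0.05 (1296 to 2690) and -0.55 (2691 to 32870). UROD lay above the 75th percentile of its bin (1.90), FECH (-0.70) lay near the median of its own, and ALAD (-0.60) lay below the median of its bin (-0.05) and above the 25th percentile (-1.05). PPOX and ALAS1 fell below the median of the shortest bin, in which their canonical 3′ UTRs place them. The PPOX ratio, however, comes from a counted transcript with an annotated 3′ UTR of 2094 bases, and was 0.37 with the canonical exon length. RNA-seq counts were divided by exon length, which contains the 3′ UTR, so an annotated 3′ UTR longer than the one used lowers the ratio. How far this shaped the bins was not tested. The authors reported a negative relation with their ratio, a positive one with other half-life methods, and a possible bias from elongation rate. They also cited other studies with a negative relation.

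The 3′ UTR of FECH held 14 copies of the AU-rich word ATTTA and ALAD held 3, whereas UROD, PPOX and ALAS1 held none, and 72.9% of 3′ UTRs held at least 1. The Pumilio word TGTANATA occurred 3 times in FECH and in none of the other 4, and was found in 29.9% of 3′ UTRs. The counts were not adjusted for length. The 3 words of FECH are shown in capitals with their flanks, with the position of the word counted from the first base after the stop codon, followed by the polyadenylation words (AATAAA) of PPOX and ALAS1, shown because they lie close to the annotated ends. All were read from the GENCODE transcript sequences for GRCh37.
FECH, Pumilio word at position 1054 of 6335: tagtcctttccTGTAGATAtttttaatgcc
FECH, Pumilio word at position 2208 of 6335: ttcttcagctgTGTATATAcggatctggct
FECH, Pumilio word at position 5732 of 6335: ctgaaaaaaagTGTATATAtggcatggaat
PPOX, polyadenylation word at position 22 of 44: ctcattcatgaaAATAAAaattgctggagc
ALAS1, polyadenylation word at position 125 of 147: catagtcctggaAATAAAttcttgcttaaa

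The mRNA whose levels over the 6 libraries lay nearest to each enzyme, by root mean square difference of log2 TPM among 8718 candidates, was CYBA for UROD (0.0792), TOR1AIP1 for ALAS1 (0.0508), CHAF1B for PPOX (0.0338), SDC4 for FECH (0.0457) and LSM11 for ALAD (0.112). With 1 cell line the likeness rests on the levels in the assays and not on a shared response.

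Genes around the pathway were taken as lists and set beside the enzymes. Of 15 tested genes for mitochondrial carriers, haem traffic and ALAS quality control, 10 were above and 4 below the median mRNA by the same test, with a median log2 ratio of 0.80, where 45.4% of mRNAs were above and 44.9% below. TSPO, a porphyrin-binding protein of the outer mitochondrial membrane, was highest (3.78), followed by PGRMC1 (3.60), a haem-binding membrane protein that interacts with FECH. SLC25A28 (-2.46), the mitoferrin of most tissues, and PGRMC2 (-2.03), a haem chaperone, were lowest.

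Genes of haem use and breakdown were above in 5 of 5 tested, with a median of 2.03, beside 45.4% of mRNAs above. BLVRA (3.18) and BLVRB (2.81), the biliverdin reductases, were highest, and HCCS (0.80), which attaches haem to cytochrome c, and COX10 (0.35), which makes haem O, lowest. HMOX1, the inducible haem oxygenase, had 2 summed counts in each assay and did not pass the thresholds.

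Iron-sulphur cluster assembly, which shares mitochondrial iron with FECH, had 9 of 12 tested genes above and 3 below (median 1.37), where 45.4% and 44.9% of mRNAs were. GLRX5 (3.21) and NFU1 (2.81), which carry clusters, were highest, and IBA57 (-1.40) and the co-chaperone HSCB (-0.33) lowest. Of 11 tested genes for glycine and succinyl-CoA, the substrates of ALAS1, 7 were above and 2 below (median 0.94), against the same 45.4% and 44.9%. SUCLG1 (2.97), a subunit of succinyl-CoA ligase, and SHMT2 (2.34), which makes glycine from serine, were highest, and the glycine transporter SLC6A9 (-2.49) and MCEE (-0.47) lowest.

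Regulators of haem synthesis had 8 of 16 tested genes above and 5 below, with a median of 0.24, and the share above was close to the 45.4% of mRNAs above while 44.9% of mRNAs were below. BACH1, the haem-sensing repressor, was at 2.25 and ACO1, the iron regulatory protein that binds ALAS2 mRNA, at 1.49. BACH1 had 81.5 TPM from 942 RNA-seq counts, whereas ALAS1 had 33.95 TPM from 1122, so the counted BACH1 transcript has fewer exon bases. The ratios of list genes rest on the lengths of their counted transcripts, which were not set beside canonical lengths gene by gene. NR1D1, a haem-binding nuclear receptor, was lowest at -3.70, followed by NRF1 at -1.16. GATA1 lay at 1.47 and TAL1 at -0.87. The medians of all 5 lists were above that of the enzymes (-0.24, the value of PPOX), but with canonical exon lengths the enzymes' median was 0.21 and that of the regulators 0.14. The differences were not tested.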

How the data were processed

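The authors deposited raw HTSeq counts per transcript for each library, made from reads trimmed by Cutadapt and placed on GRCh38 by HISAT2, and left out 500 bp at each TU end for PRO-seq. The sources used here give neither tool versions nor the strand setting. Rows naming no TU held 66.5% to 68.6% of RNA-seq and 86.5% and 88.6% of PRO-seq records and were left out of totals and tests. Transcripts were joined by identifier to GENCODE on GRCh37 (37339 of 42371 matched), which gave lengths that may differ from those counted on. TPM was computed with exon length for RNA-seq and span minus 1000 bp for PRO-seq, from summed counts unless given per library. edgeR (version 4.0.16, R version 4.3.3) used TMM normalization, length offsets and recentring on the median mRNA, over mRNAs, lincRNAs, antisense genes and pseudogenes past the TPM thresholds. The steps were tested on simulated data. DESeq2 (version 1.42.0), other filters, lengths and references, and left-out libraries were alternatives. The canonical exon length, its effect on pairs and list medians, the placing of PRO-seq counts inside canonical transcripts, and the use of replicates 1 and 2 alone were added after seeing the data. Intervals cover only the spread between these libraries, and without molecular identifiers PCR copies count as separate reads.

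The members and lists were chosen with earlier results of these data known. Named were all members, the markers, the 2 highest and 2 lowest tested genes of each list and the nearest mRNA to each member. B4GALT3 and HECTD3 were named for their overlap, HMOX1 after its values were seen. The planned comparison of ALAS2 with ALAS1 could not be run, and the 10 member pairs took its place. Some genes and a sequence under these rules are not reported here.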

Additional observations from a re-analysis of the deposited data

Results flagged for a closer look

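Of 5 groups of 4 RNA-seq libraries examined (1 for each enzyme), 1 held a library apart from the rest. PPOX had 33.5 TPM in RNA-seq replicate 4 and 32.2 to 32.3 TPM in the other 3, so that the gap made up 0.913 of the range, past Dixon's critical value for 4 samples. The whole range is narrow beside the mean of 32.5 TPM, and chance flags about 1 in 20 such groups.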

How the results depend on the processing

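Each of the 5 enzymes' log2 ratios was recomputed under 18 alternatives, and 74 of the 90 values kept their direction and their side of the threshold, all 18 for UROD. With at least 1 summed count the values were 0.74 for ALAS1, 0.062 for ALAD, 0.42 for PPOX and -0.039 for FECH. That setting shifted all ratios by a median of 0.66, the median of all TUs as reference by 0.23 and at least 10 summed counts by 0.12. With 10 summed counts ALAS1 was 0.20 (edgeR adjusted p = 0.044) and PPOX -0.12 (0.25). With all TUs as reference ALAS1 was 0.31 (edgeR adjusted p = 0.0024) and PPOX -0.010 (0.92). The canonical exon length gave 0.21 for ALAS1 and 0.37 for PPOX. Against a 2-fold difference ALAD (-0.60), PPOX (-0.24) and FECH (-0.70) were not called (edgeR adjusted p = 1 each). DESeq2 gave -0.24 for PPOX (adjusted p = 0.076). With the replicate block, fitted on replicates 1 and 2 of both assays alone, PPOX was -0.25 (edgeR adjusted p = 0.058), the only call of the 5 that changed. The same libraries without the block gave -0.25 for PPOX (edgeR adjusted p = 0.036). The replicate numbers were not used as pairs in the main fit. The difference of replicates 1 and 2 in RNA-seq went with that in PRO-seq at r = -0.02 over 9841 TUs. That value alone cannot tell whether the libraries were paired when they were made.

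Leaving out 1 library gave 0.05 to 0.11 for ALAS1, -0.72 to -0.46 for ALAD, 2.38 to 2.60 for UROD, -0.30 to -0.18 for PPOX and -0.76 to -0.64 for FECH. The enzymes above numbered 3 with 1 summed count, 2 with 10 or with all TUs as reference, and 3 with the canonical length, and those below 0 with 1 summed count or against 2-fold and 2 or 3 without 1 library. Of all TUs, 6634 were above and 7596 below with 1 summed count, and 2138 and 2898 against 2-fold. Regulators below were 3 with DESeq2, 10 counts or all TUs as reference, and 13 were above with 1 summed count. Iron-sulphur genes below were 1 with 1 or 10 summed counts, with all TUs as reference or against 2-fold. Glycine and succinyl-CoA genes were 11 above and 1 below with 1 summed count, and 1 below with stricter TPM thresholds or against 2-fold. Against 2-fold, carriers were 5 above and 2 below, haem use 3 above, and regulators 3 above and 2 below. With 500 bp off the PRO-seq length, PRO-seq TPM was 58.5 for ALAS1, 23.4 for ALAD, 68.9 for PPOX and 58.0 for FECH. The causes were not tested beyond these constructions. The pseudocount of 1 TPM was planned for the ALAS2 comparison and was not run. Counts of 61 to 119 in RNA-seq and 65 and 81 in PRO-seq limit ALAD most.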
